A study of Homo sapiens with 18 samples.

Results

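CCN1, CCN2, ANKRD1, AMOTL2, TGFBI, THBS1, AXL, SMAD7 and SKIL are 9 genes used as readouts of YAP and TGF-beta activity, and their RNA was followed after knockdown of OFD1 in 3 pancreatic cancer cell lines. They were picked by symbol from the 26668 gene symbols of the expression table and not by their measured values. CCN1 and CCN2, also called CYR61 and CTGF, stood in the table under their newer names.

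YAP and its paralog TAZ (gene WWTR1) are transcriptional coactivators that the kinases of the Hippo pathway keep out of the nucleus. In the nucleus they bind TEAD factors, which recognise DNA and switch on genes for matrix-associated, cytoskeletal and survival proteins. TGF-beta ligands act through a pair of serine/threonine kinase receptors that phosphorylate SMAD2 and SMAD3, which enter the nucleus with SMAD4. Both routes are known for their part in pancreatic ductal cancer, where SMAD4 and TGFBR2 are recurrently lost, and several of the 9 genes answer to both. By their roles, CCN1 and CCN2 are secreted matricellular proteins, THBS1 is a matricellular glycoprotein that can activate latent TGF-beta, ANKRD1 is a nuclear ankyrin-repeat protein, AMOTL2 is a junctional scaffold that binds YAP, AXL is a receptor tyrosine kinase, TGFBI is a secreted matrix protein, and SMAD7 and SKIL (SnoN) are feedback inhibitors of TGF-beta signalling.

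PANC-1, MIA PaCa-2 and PaTu 8988T are established human pancreatic cancer lines. Each gave 3 control libraries, labelled wild type and without treatment, and 3 libraries labelled shOFD1, in which a short hairpin RNA against OFD1, a centriole and centriolar satellite protein, was induced with doxycycline. The hairpin was on a Tet-on construct. Cells received DMSO or doxycycline for 72 h by the protocol, while the series text places the groups at day 0 and day 3. Titles of the controls name a control hairpin, so whether they were uninduced cells of the knockdown line or separately made cells was not settled here, and doxycycline, time in culture and knockdown cannot be told apart. The labels of PaTu 8988T replicates 2 and 3 carry other line names as the cell line, and the titles were followed.

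Between 32486486 and 39797543 reads were counted per library. OFD1 itself read 5.50, 5.12 and 5.67 FPKM in the PANC-1 controls and 2.80, 2.27 and 2.58 FPKM after knockdown. In MIA PaCa-2 it read 3.09, 2.27 and 3.20 FPKM in controls and 1.76, 1.74 and 1.97 FPKM after knockdown, and in PaTu 8988T 2.14, 1.93 and 2.12 against 0.986, 0.894 and 0.854 FPKM. Knockdown libraries were below all controls in each line. FPKM divides the reads of a gene by gene length and library size, and all changes below are differences between group means of log2(FPKM + 0.1), tested with limma over all genes of a line with a mean of at least 1 FPKM. MIA PaCa-2 control replicate 2 stood apart: its median distance to its fellow controls was 0.393 on the log2 scale, against 0.0510 to 0.0930 for the libraries of the other groups. Results that rest on it are given with and without it. Group means of the epithelial markers KRT8 and KRT18 lay between 319 and 947 FPKM in every line, but those of CDH1 reached only 0.0125 FPKM in MIA PaCa-2 and 0.276 FPKM in PaTu 8988T, EPCAM 0.0330 FPKM in MIA PaCa-2 and KRT19 0.00647 FPKM in PaTu 8988T.

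In the GENCODE 29 annotation (GRCh38), CCN1 spans chr1:85580761-85583962 (plus strand), CCN2 chr6:131948176-131951373 (minus strand), ANKRD1 chr10:90912096-90921276 (minus strand) and AMOTL2 chr3:134355874-134375479 (minus strand). TGFBI spans chr5:136028895-136063818 (plus strand), THBS1 chr15:39581079-39599466 (plus strand), AXL chr19:41219203-41261766 (plus strand), SMAD7 chr18:48919853-48952052 (minus strand) and SKIL chr3:170357678-170396835 (plus strand).

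The starts of 8 of the 9 genes were matched to 12 RefSeq promoter windows (GRCh38.p14), each running from 250 bases before to 50 bases after a transcription start. The windows were searched for GGAATG, the core letters of the TEAD recognition element, on either strand (CATTCC on the other). These letters were present in a window of 5 of the 8 genes, CCN2, ANKRD1, AMOTL2, THBS1 and AXL, in 5 of the 12 windows of these members and in 14.03% of all 35116 windows. Of the 5, CCN2, ANKRD1 and AMOTL2 are printed because their RNA rose with knockdown in both PANC-1 and PaTu 8988T, and THBS1 because it rose in PANC-1. AXL, with a match starting 212 bases before the start of its second window, fell in PANC-1 and is not printed. AMOTL2 was called lower in MIA PaCa-2. A set printed by direction of change cannot show whether the letters go with a rise. Sequences run 5′ to 3′ on the gene's strand, with the matched letters in capitals.
CCN2, chr6:131951323-131951622, minus strand, matches starting 169, 104 and 95 bases before the start: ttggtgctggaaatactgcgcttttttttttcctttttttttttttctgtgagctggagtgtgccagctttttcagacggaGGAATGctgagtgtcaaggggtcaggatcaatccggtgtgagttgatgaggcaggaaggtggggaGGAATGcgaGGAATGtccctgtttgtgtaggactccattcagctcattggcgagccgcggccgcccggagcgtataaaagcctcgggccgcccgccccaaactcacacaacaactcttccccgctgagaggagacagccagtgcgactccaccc
ANKRD1, chr10:90921038-90921337, minus strand, matches starting 220 and 128 bases before the start: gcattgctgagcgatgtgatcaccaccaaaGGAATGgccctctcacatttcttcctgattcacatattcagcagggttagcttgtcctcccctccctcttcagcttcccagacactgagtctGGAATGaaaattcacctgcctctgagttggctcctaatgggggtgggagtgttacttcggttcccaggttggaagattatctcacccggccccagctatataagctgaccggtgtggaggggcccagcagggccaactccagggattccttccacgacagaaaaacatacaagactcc
AMOTL2, the second of its windows, chr3:134374398-134374697, minus strand, match starting 69 bases before the start: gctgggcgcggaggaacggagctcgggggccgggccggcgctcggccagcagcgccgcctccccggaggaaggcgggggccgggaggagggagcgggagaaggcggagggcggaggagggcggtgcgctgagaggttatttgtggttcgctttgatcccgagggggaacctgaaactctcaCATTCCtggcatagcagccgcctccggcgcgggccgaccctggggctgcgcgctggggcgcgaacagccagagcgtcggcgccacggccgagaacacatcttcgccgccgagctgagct
THBS1, chr15:39580829-39581128, plus strand, match starting 46 bases before the start: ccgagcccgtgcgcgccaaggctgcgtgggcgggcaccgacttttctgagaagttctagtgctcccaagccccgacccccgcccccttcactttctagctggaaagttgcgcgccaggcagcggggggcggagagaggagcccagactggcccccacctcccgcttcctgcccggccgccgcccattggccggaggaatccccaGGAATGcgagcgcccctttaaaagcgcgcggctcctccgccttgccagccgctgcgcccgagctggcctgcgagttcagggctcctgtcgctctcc
The core of the SMAD element, CAGAC (read as GTCTG on the other strand), is shorter and was present in windows of 7 of the 8 genes, 9 of 12 windows, and in 45.3% of all windows. Neither motif contains the other. A match of letters is a description of the window and not evidence of binding. No window was matched for CCN1.

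In PANC-1 all 9 genes were measured above 1 FPKM, and 8 changed. ANKRD1, THBS1, AMOTL2, CCN2 and SKIL rose, AXL, TGFBI and CCN1 fell, and SMAD7 did not pass the threshold of an adjusted p of 0.05. Among all 10902 genes tested in this line, 40.1% were called higher and 32.2% lower. The counts of 5 higher and 3 lower among 9 stand against that high background. With the added requirement of a fold change above 2 or below 0.5, ANKRD1 and THBS1 were called higher, against 1.75% of all genes, and AXL lower, against 4.84%. The log2 fold change of THBS1 fell short of 2-fold with a pseudocount of 1 (0.85), under median-ratio scaling (0.98), without control replicate 1 (0.95) and without shOFD1 replicate 3 (0.98), and passed the adjusted p threshold in each. For 8 of the 9 the 2 groups of libraries had no overlap, which was also the case for 75.0% of all genes. The libraries are of whole cultures, so fewer cells expressing a gene and less of its RNA per cell cannot be told apart.

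**Figure D1:**
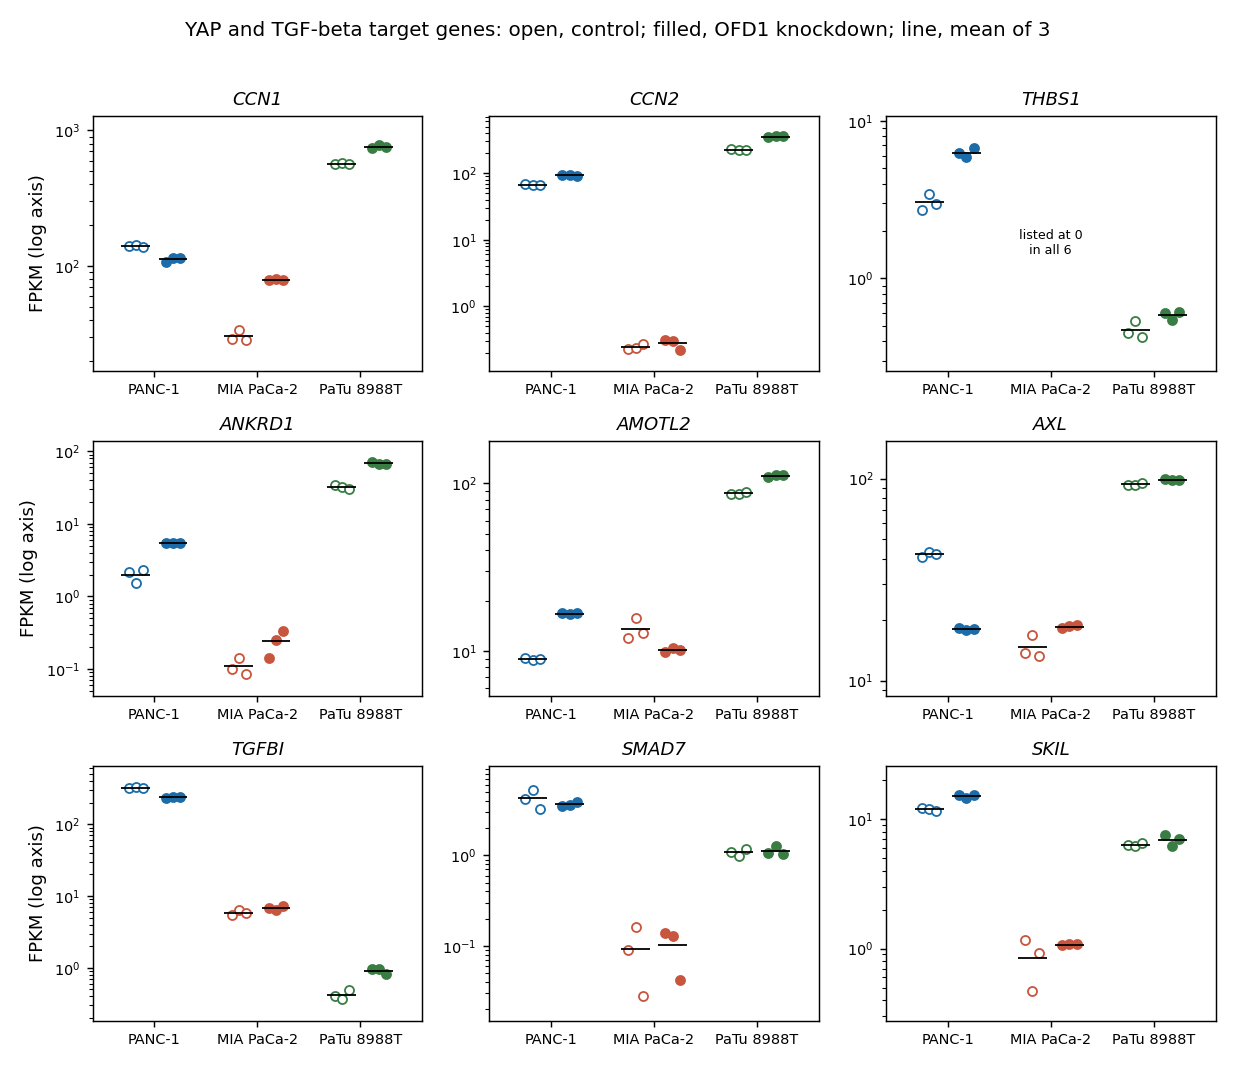
FPKM of the 9 genes (log axis, one panel per gene) in the 3 control libraries (open) and 3 OFD1 knockdown libraries (filled) of each line, with the mean of 3 as a line. ANKRD1 and CCN2 knockdown libraries lie above the controls in PANC-1 and PaTu 8988T, the AXL knockdown libraries lie below the controls in PANC-1, and THBS1 was listed at 0 in all 6 MIA PaCa-2 libraries. Gene lengths differed between lines for AMOTL2, THBS1 and SKIL, so their panels compare groups within a line only.

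Of the matricellular genes in PANC-1, CCN2 read 68.5, 67.1 and 67.3 FPKM in controls and 93.4, 94.1 and 90.6 FPKM after knockdown. All knockdown libraries were higher, and the log2 fold change was 0.45 (SE 0.0262, adjusted p = 1.55e-07). CCN1 went the other way, from 141, 142 and 138 FPKM to 108, 115 and 115 FPKM, a log2 fold change of -0.32 (SE 0.0286, adjusted p = 3.93e-06). These closely related genes of the CCN family thus moved in opposite directions in the same libraries, both by less than 2-fold. THBS1 was much lower in level, 2.73, 3.45 and 2.96 FPKM in controls, and rose to 6.26, 5.89 and 6.72 FPKM. Its log2 fold change was 1.03 (SE 0.0939, adjusted p = 4.81e-06).

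ANKRD1, a gene whose RNA is widely used as a YAP readout, was the member with the highest log2 fold change in PANC-1. It read 2.14, 1.53 and 2.34 FPKM in controls and 5.40, 5.46 and 5.45 FPKM after knockdown, a log2 fold change of 1.42 (SE 0.134, adjusted p = 6.22e-06). Control replicate 2 was the lowest of the 6 libraries, and leaving it out gave a change of 1.24 (adjusted p = 1.96e-06). AMOTL2, whose product holds YAP at cell junctions and which is itself a YAP target, rose from 9.15, 8.80 and 9.02 FPKM to 16.8, 16.6 and 16.8 FPKM. The change was 0.89 (SE 0.0424, adjusted p = 4.00e-08) on the log2 scale.

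AXL, the receptor for GAS6, fell past 2-fold. It read 40.97, 43.2 and 42.4 FPKM in PANC-1 controls and 18.1, 17.8 and 17.995 FPKM after knockdown, a log2 fold change of -1.23 (SE 0.0348, adjusted p = 1.30e-09). The lowest control was well above the highest knockdown library. TGFBI, one of the most abundant RNAs of this line (rank 126 of 26668 by its control mean), went from 318, 329.8 and 317 FPKM to 232, 241 and 238 FPKM, and fell by 0.44 on the log2 scale (SE 0.0235, adjusted p = 8.86e-08).

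The feedback inhibitors differed from each other in PANC-1. SKIL, which represses SMAD-driven transcription, rose from 12.1, 12.03 and 11.5 FPKM to 15.4, 14.6 and 15.3 FPKM, a log2 fold change of 0.34 (SE 0.0448, adjusted p = 6.47e-05). SMAD7, which blocks the receptors, read 4.19, 5.34 and 3.29 FPKM in controls and 3.55, 3.62 and 3.85 FPKM after knockdown. The SMAD7 groups overlapped, and the log2 fold change of -0.19 (SE 0.144, adjusted p = 0.266) had a 95% interval of -0.51 to 0.14. Without control replicate 3, its lowest control, SMAD7 passed the threshold at -0.36 (adjusted p = 0.0169).

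**Figure D2:**
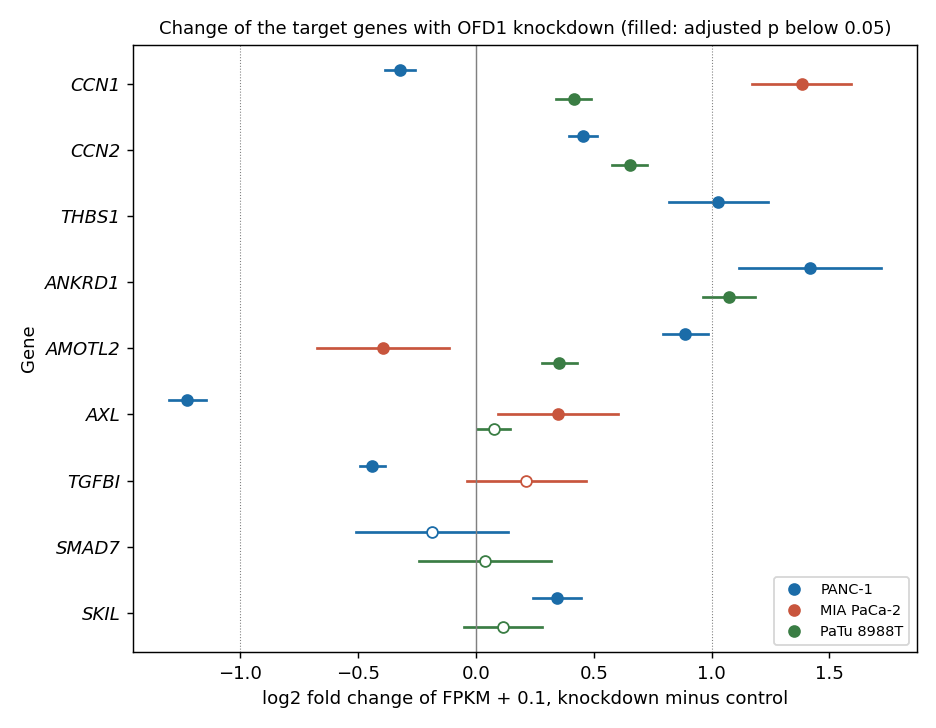
Log2 fold change (knockdown minus control) of each gene in each line with its 95% interval, with filled points past an adjusted p of 0.05 and dotted lines at 2-fold either way. ANKRD1 reached 1.42 in PANC-1 and 1.07 in PaTu 8988T, CCN1 1.38 in MIA PaCa-2 and AXL -1.23 in PANC-1, and genes under a mean of 1 FPKM in a line have no point.

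MIA PaCa-2 expressed only part of the set. CCN1, AXL, AMOTL2 and TGFBI passed the minimum of 1 FPKM, and CCN1 and AXL were called higher and AMOTL2 lower. Over the 10758 genes tested, 18.7% were called higher and 21.7% lower. CCN1 alone passed 2-fold, against 4.07% of genes past 2-fold upward and 3.68% below 0.5. The libraries did not overlap for any of the 4, nor for 59.3% of all genes. Without control replicate 2, calls over all genes rose from 4350 to 8098 (35.4% higher and 39.8% lower), and TGFBI joined the 2 genes called higher. Leaving out a knockdown library instead left between 2423 and 2468 calls.

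CCN1 read 28.8, 34.01 and 28.6 FPKM in MIA PaCa-2 controls and 78.9, 80.3 and 78.7 FPKM after knockdown. Every knockdown library was more than 2-fold above every control, with a log2 fold change of 1.38 (SE 0.0878, adjusted p = 0.000185) and of 1.46 (adjusted p = 4.47e-09) without control replicate 2. AXL read 13.7, 16.7 and 13.3 FPKM in controls and 18.1, 18.6 and 18.7 FPKM after knockdown, a log2 fold change of 0.35 (SE 0.107, adjusted p = 0.0404). AMOTL2 was lower after knockdown, 12.01, 15.7 and 12.7 against 9.85, 10.4 and 10.2 FPKM, with a log2 fold change of -0.40 (SE 0.118, adjusted p = 0.0364). Control replicate 2 was the highest control for both. Without it AXL changed by 0.45 (adjusted p = 8.58e-06) and AMOTL2 by -0.28 (adjusted p = 0.000626), whereas without control replicate 3 neither passed (adjusted p = 0.114 and 0.0622). Without control replicate 1 the AXL call was also lost (adjusted p = 0.112), and leaving out any 1 knockdown library lost both calls, with adjusted p up to 0.134 for AXL and 0.129 for AMOTL2.

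TGFBI in MIA PaCa-2 read 5.39, 6.39 and 5.74 FPKM in controls and 6.77, 6.41 and 7.16 FPKM after knockdown. The groups stood just apart, but the log2 fold change of 0.21 (SE 0.105, adjusted p = 0.149) did not pass, with a 95% interval of -0.04 to 0.47. It was 0.28 (adjusted p = 0.00359) without control replicate 2. The other 5 genes lay at or under about 1 FPKM. CCN2 was counted at 20 to 28 reads per library and the groups overlapped. ANKRD1, at 6 to 23 reads, read 0.0999, 0.140 and 0.0858 FPKM in controls and 0.144, 0.250 and 0.335 FPKM after knockdown. Its groups did not overlap, and in a fit without the minimum its log2 fold change was 0.69 (SE 0.245, adjusted p = 0.102), which did not pass at this depth. SMAD7 was counted at 4 to 24 reads and THBS1 was listed at 0 in all 6 libraries. SKIL read 1.16, 0.470 and 0.923 FPKM in controls and 1.06, 1.08 and 1.08 FPKM after knockdown, its lowest value being control replicate 2, and it had a log2 fold change of 0.38 (SE 0.311, adjusted p = 0.462) in the fit without the minimum.

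Marker lists of other cell types also differed between the groups of this line, without overlap. The summed level of 6 fibroblast markers was 6.18 to 6.86 FPKM in MIA PaCa-2 controls and 29.7 to 30.8 FPKM after knockdown, carried by COL3A1 (6.37 to 30.1 FPKM), the 1 marker of the 6 with a mean of at least 1 FPKM. DCN was listed at 0 in all MIA PaCa-2 controls, and COL1A1, LUM, PDGFRA and PDGFRB averaged under 0.1 FPKM. The sum of 4 immune and endothelial markers went from 49.3 to 67.4 FPKM in controls to 73.2 to 77.1 FPKM, with PTPRC at 3.51 and 6.002 FPKM on average and PECAM1 and CDH5 under 0.1 FPKM. Most of the sum was CD68, at 52.5 FPKM in controls and 69.3 FPKM after knockdown on average. CD68 did not pass in the limma fit (0.42, SE 0.141, adjusted p = 0.0528), but did without control replicate 2 (0.58, adjusted p = 6.32e-07). In PANC-1 the immune and endothelial sum, nearly all CD68, was 32.0 to 37.8 FPKM in controls and 17.2 to 19.7 FPKM after knockdown, and the fibroblast sum, with DCN listed at 0 in every library, was 35.2 to 37.2 and 40.2 to 40.7 FPKM. In PaTu 8988T these sums were 13.7 to 13.9 and 9.85 to 11.7 FPKM, and 2.97 to 3.32 and 3.08 to 3.79 FPKM. The epithelial sum of 5 markers was 1615 to 2195 FPKM in MIA PaCa-2 controls and 1359 to 1391 FPKM after knockdown, 1045 to 1068 and 838 to 909 FPKM in PaTu 8988T, and 931 to 952 and 917 to 937 FPKM in PANC-1, with EPCAM and CDH1 averaging under 0.1 FPKM in MIA PaCa-2. The PANC-1 sums hide markers that moved in opposite directions. On average KRT19 fell there from 178 to 89.2 FPKM and KRT18 from 333 to 319 FPKM. KRT8 rose from 420 to 504, EPCAM from 6.05 to 8.53 and CDH1 from 6.70 to 8.37 FPKM. Of the fibroblast markers in PANC-1, COL1A1 fell from 26.1 to 22.3 FPKM and COL3A1 rose from 10.2 to 17.8 FPKM. The part of these shifts in the changes of the target genes was not tested.

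PaTu 8988T held the highest control levels of CCN1 and CCN2, and here no member fell. CCN2, ANKRD1, CCN1 and AMOTL2 rose among 7 genes tested, against 20.9% of all 10698 genes higher and 18.5% lower. At an unadjusted p under 0.05, limma gave 5 members higher and 0 lower, against 26.6% and 21.9% of all genes. In PANC-1 the unadjusted counts were 5 and 3, against 41.4% and 32.9%, and in MIA PaCa-2 2 and 1, against 23.5% and 26.8%. ANKRD1 alone passed 2-fold, which 0.159% of genes did upward and 0.841% downward. The libraries did not overlap for 5 of the 7, against 51.9% of all genes.

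CCN1 read 566, 574 and 567 FPKM in PaTu 8988T controls and 747, 779 and 750.2 FPKM after knockdown, a log2 fold change of 0.41 (SE 0.0329, adjusted p = 2.01e-05). It ranked 88 of 26668 symbols by its control mean. CCN2 rose from 228, 224 and 225 FPKM to 345, 362 and 357 FPKM (log2 fold change 0.65, SE 0.0329, adjusted p = 1.96e-06). The groups were clearly apart for both CCN genes, and here they moved the same way. ANKRD1 read 34.7, 32.7 and 30.8 FPKM in controls and 71.4, 67.5 and 67.6 FPKM after knockdown, with a log2 fold change of 1.07 (SE 0.0493, adjusted p = 1.30e-06). AMOTL2 rose from 86.4, 85.97 and 88.9 FPKM to 109, 113 and 112 FPKM, by 0.35 (SE 0.0336, adjusted p = 6.09e-05) on the log2 scale.

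AXL, which fell past 2-fold in PANC-1, did not pass the threshold in PaTu 8988T. It read 93.3, 93.1 and 94.7 FPKM in controls and 99.3, 98.2 and 98.5 FPKM after knockdown. The libraries did not overlap, but the log2 fold change of 0.07 (SE 0.0314, adjusted p = 0.0864) did not pass. SMAD7, at 1.10, 0.974 and 1.18 FPKM in controls and 1.06, 1.26 and 1.03 FPKM after knockdown, had a log2 fold change of 0.04 (SE 0.125, adjusted p = 0.834) with a 95% interval of -0.24 to 0.32, and its groups overlapped. SKIL went from 6.31, 6.24 and 6.52 FPKM to 7.52, 6.17 and 7.02 FPKM, with a log2 fold change of 0.11 (SE 0.0741, adjusted p = 0.250). Knockdown replicate 2 lay below every control of SKIL, and without it the gene passed at 0.19 (adjusted p = 0.0267).

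THBS1 and TGFBI lay under 1 FPKM in PaTu 8988T. TGFBI, counted at 35 to 97 reads per library, read 0.409, 0.366 and 0.498 FPKM in controls and 0.969, 0.966 and 0.812 FPKM after knockdown. All knockdown libraries were higher, and the fit without the minimum gave a log2 fold change of 0.96 (SE 0.159, adjusted p = 0.00933). THBS1, at 123 to 174 reads, read 0.448, 0.535 and 0.426 FPKM and 0.602, 0.547 and 0.615 FPKM, also without overlap, with a log2 fold change of 0.27 (SE 0.147, adjusted p = 0.275) in that fit.

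Over the members tested, the median log2 fold change was 0.34 in PANC-1 (9 genes), 0.28 in MIA PaCa-2 (4) and 0.35 in PaTu 8988T (7), beside 0.06, -0.03 and 0.03 over all genes tested. These medians rest on different members. Without regard to sign, the median change over all genes was 0.29, 0.34 and 0.14. In PANC-1 the members ran from -1.23 for AXL to 1.42 for ANKRD1. By target class, the 5 genes usually assigned to YAP/TAZ and TEAD (CCN1, CCN2, ANKRD1, AMOTL2, AXL) counted 3 higher and 2 lower in PANC-1, 2 higher and 1 lower of 3 tested in MIA PaCa-2, and 4 higher of 5 in PaTu 8988T. For TGFBI, SMAD7 and SKIL the counts were 1 higher and 1 lower in PANC-1, 0 of 1 tested in MIA PaCa-2 and 0 of 2 in PaTu 8988T. As background, PANC-1 had 40.1% of all its tested genes called higher, 32.2% lower. For MIA PaCa-2 the background was 18.7% higher, 21.7% lower. PaTu 8988T had 20.9% higher, 18.5% lower. The AXL and AMOTL2 calls of MIA PaCa-2 were both lost whenever 1 knockdown library was left out. No test compared the classes with each other or with these shares.

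Control levels can be set side by side between lines only for the 6 members whose recovered gene length was the same in all 3 lines, and as a description, since the columns of PANC-1 rest on other gene lengths than those of the other lines. CCN1 (2278 bases), CCN2 (2338), ANKRD1 (1790) and AXL (4875) were ordered PaTu 8988T, PANC-1, MIA PaCa-2, and TGFBI (2712) and SMAD7 (3698) had PANC-1 on top. CCN1 control means were 569 ± 4.16, 140.5 ± 1.96 and 30.5 ± 3.07 FPKM (SD, n = 3) in that order, a ratio of 18.7 from highest to lowest. For ANKRD1 they were 32.7 ± 1.96, 2.002 ± 0.424 and 0.109 ± 0.0283 FPKM. TGFBI averaged 322 ± 6.91 FPKM in PANC-1, 5.84 ± 0.510 FPKM in MIA PaCa-2 and 0.424 ± 0.0671 FPKM in PaTu 8988T, a ratio of 758. For these 6 genes the control libraries of neighbouring lines in the order did not overlap.

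The size of the knockdown change was then compared between lines as an interaction term in one fit of all 18 libraries over 10697 genes, in which the gene length cancels apart from the pseudocount. THBS1 was left out because it was listed at 0 in MIA PaCa-2, so 8 members were tested. The fall of OFD1 itself also differed. It was -0.46 (SE 0.165, adjusted p = 0.0341) for PANC-1 minus MIA PaCa-2 and 0.49 (SE 0.165, adjusted p = 0.0207) for MIA PaCa-2 minus PaTu 8988T. Within lines OFD1 changed by -1.07 in PANC-1, -0.61 in MIA PaCa-2 (-0.76 without control replicate 2) and -1.10 in PaTu 8988T. The part of this in the differences of the members was not tested. Here the minimum of 1 FPKM was set on the mean of the 18 libraries. CCN2, ANKRD1, SMAD7 and SKIL thus entered although below it in MIA PaCa-2, and TGFBI although below it in PaTu 8988T. The counts include calls that rest on such low values. These are CCN2 in both pairs with MIA PaCa-2, ANKRD1 for PANC-1 minus MIA PaCa-2, and TGFBI in both pairs with PaTu 8988T. PANC-1 and MIA PaCa-2 differed for 6 of 8, against 43.2% of all genes. PANC-1 and PaTu 8988T differed for 4 of 8, against 35.8%, and MIA PaCa-2 and PaTu 8988T for 5 of 8, against 51.1%. CCN1 differed between all lines, with a fall in PANC-1 and rises in the others. The difference was -1.70 (SE 0.0742, adjusted p = 1.58e-10) for PANC-1 minus MIA PaCa-2 and -0.74 (SE 0.0742, adjusted p = 1.61e-06) for PANC-1 minus PaTu 8988T. For AXL the same differences were -1.57 (SE 0.0898, adjusted p = 3.37e-09) and -1.30 (SE 0.0898, adjusted p = 2.94e-08). AMOTL2, which rose in PANC-1 and PaTu 8988T and was lower in MIA PaCa-2, differed by 1.28 (SE 0.1003, adjusted p = 1.11e-07) between PANC-1 and MIA PaCa-2 and by -0.75 (SE 0.1003, adjusted p = 1.50e-05) for MIA PaCa-2 minus PaTu 8988T.

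ANKRD1 rose in both PANC-1 and PaTu 8988T, and the difference of 0.35 (SE 0.246, adjusted p = 0.298) did not pass. CCN2 differed by -0.20 (SE 0.105, adjusted p = 0.158) between these lines, which also did not pass, but did in a fit of those 2 lines alone (adjusted p = 0.000510). TGFBI differed by -1.40 (SE 0.127, adjusted p = 6.15e-07) for PANC-1 minus PaTu 8988T, where its PaTu 8988T values rest on 35 to 97 reads. With a pseudocount of 1 that difference was -0.87 (adjusted p = 1.08e-06), and for MIA PaCa-2 minus PaTu 8988T it went from -0.74 (SE 0.127, adjusted p = 0.000156) to -0.24 (adjusted p = 0.0284). SMAD7 and SKIL passed in no pair of lines in this fit. The SKIL difference for PANC-1 minus PaTu 8988T, 0.23 (SE 0.265, adjusted p = 0.535), passed in a fit of those 2 lines alone (adjusted p = 0.0409), and without MIA PaCa-2 control replicate 2 the SKIL difference for PANC-1 minus MIA PaCa-2 turned from -0.03 to 0.30 (adjusted p = 0.0296). For THBS1, a fit of PANC-1 and PaTu 8988T alone gave a difference of 0.75 (SE 0.150, adjusted p = 0.000690).

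**Figure D3:**
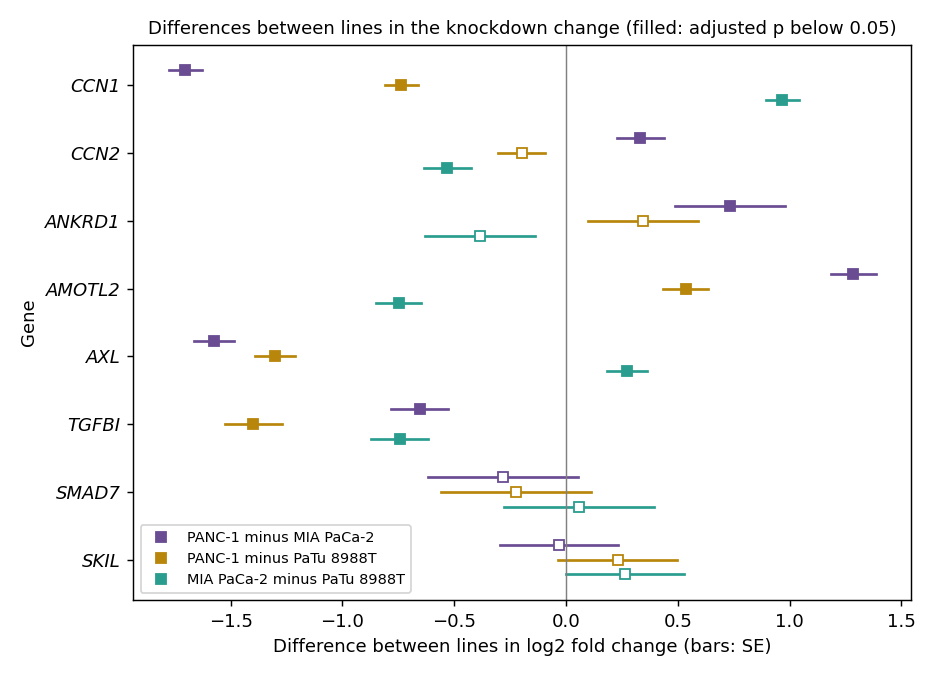
Differences between lines in the log2 fold change of 8 genes (x axis, bars are SE), one colour per pair of lines, with filled squares past an adjusted p of 0.05. CCN1, AMOTL2, AXL and TGFBI are filled in all 3 pairs, and SMAD7 and SKIL in none.

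The other genes of the pathways were examined as lists. The list counts are to be read against the share of all genes called. In PANC-1 this was 40.1% higher and 32.2% lower, and in PaTu 8988T 20.9% and 18.5%. In MIA PaCa-2 it was 18.7% and 21.7%, or 35.4% and 39.8% without control replicate 2. No test compared a list with these shares, so a count near them is no result about the list. The coactivators themselves fell in part. YAP1 went from 41.7 ± 1.72 to 15.1 ± 0.439 FPKM in PANC-1 (mean ± SD, n = 3, control to knockdown), a log2 fold change of -1.47 (SE 0.0417, adjusted p = 1.31e-09), and from 21.7 ± 4.21 to 8.95 ± 0.261 FPKM in MIA PaCa-2, a log2 fold change of -1.25 (SE 0.153, adjusted p = 0.00139), or -1.42 (adjusted p = 2.94e-08) without control replicate 2. In PaTu 8988T YAP1 averaged 60.5 ± 0.883 to 55.3 ± 4.57 FPKM, with a log2 fold change of -0.13 (SE 0.0565, adjusted p = 0.0916). WWTR1, the gene of TAZ, fell in PANC-1, from 74.4 ± 0.291 to 32.97 ± 0.627 FPKM (log2 fold change -1.17, SE 0.0281, adjusted p = 5.29e-10), and its log2 fold change was 0.09 (SE 0.124, adjusted p = 0.581) in MIA PaCa-2 and -0.04 (SE 0.0609, adjusted p = 0.670) in PaTu 8988T. In PANC-1, where RNA of both coactivators fell, CCN2, ANKRD1 and AMOTL2 rose and CCN1 and AXL fell.

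TEAD1, which carries YAP and TAZ to DNA, rose in all 3 lines, by 0.44 (SE 0.0448, adjusted p = 1.05e-05) in PANC-1, 0.86 (SE 0.198, adjusted p = 0.0147) in MIA PaCa-2 and 0.32 (SE 0.0560, adjusted p = 0.00207) in PaTu 8988T, and by 0.62 (adjusted p = 1.71e-06) in MIA PaCa-2 without control replicate 2. TEAD2 rose in PANC-1 (0.30, adjusted p = 1.74e-05) and PaTu 8988T (0.28, adjusted p = 0.00118) and was at 0.07 in MIA PaCa-2 (adjusted p = 0.668). TEAD3 rose in PANC-1 (0.27, adjusted p = 0.00920) and did not pass in MIA PaCa-2 (0.03) or PaTu 8988T (0.12). TEAD4 fell in MIA PaCa-2 (-0.33, adjusted p = 0.0431), rose in PaTu 8988T (0.45, adjusted p = 0.000202) and was at -0.04 in PANC-1 (adjusted p = 0.710). VGLL4, a TEAD-binding repressor, fell from 9.93 ± 0.155 to 4.87 ± 0.111 FPKM in MIA PaCa-2 (-1.01, adjusted p = 0.000373) and also fell in PaTu 8988T, with a log2 fold change of -0.58 (SE 0.0404, adjusted p = 9.49e-06). VGLL4 fell in PANC-1 too (-0.51, SE 0.0457, adjusted p = 3.97e-06). Of the 9 coactivators and TEAD partners, 3 rose and 3 fell of 7 tested in PANC-1 (median log2 fold change -0.04), 1 rose and 3 fell of 7 in MIA PaCa-2 (median 0.03), and 3 rose and 1 fell of 7 in PaTu 8988T (median 0.12). Without control replicate 2 the MIA PaCa-2 counts were 2 and 3 of 7.

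**Figure D4:**
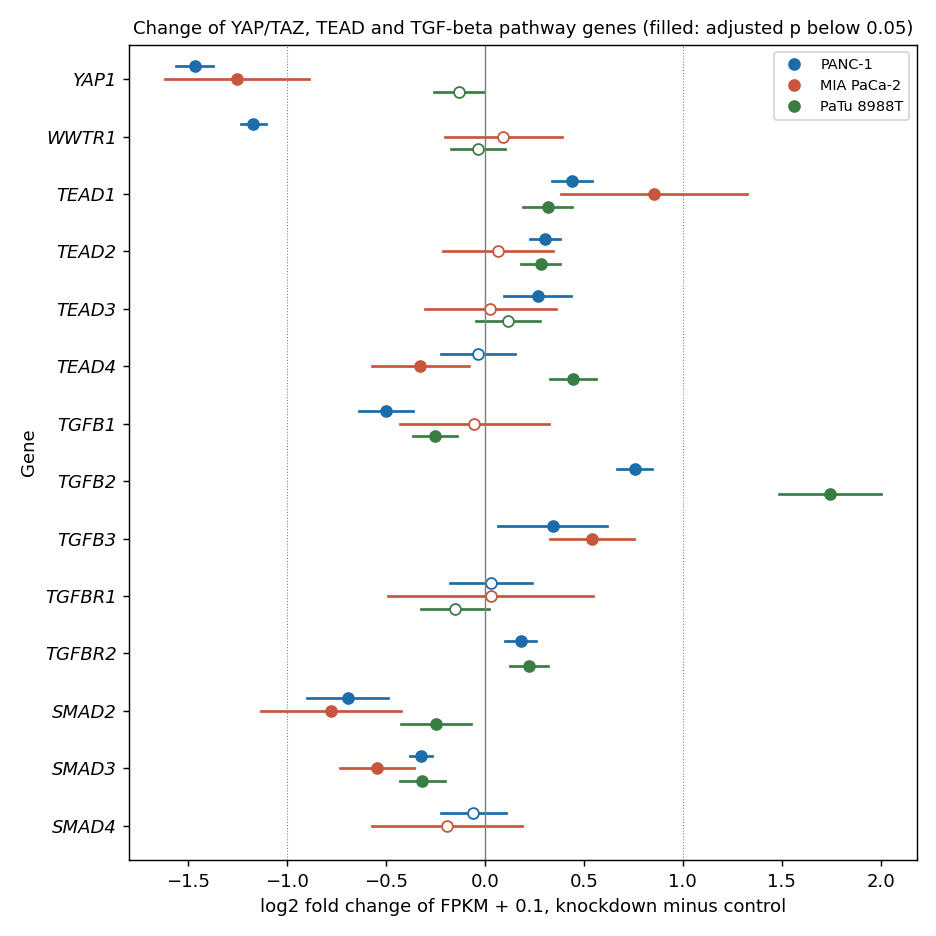
Log2 fold change (knockdown minus control) with its 95% interval of the coactivators, TEAD factors, TGF-beta ligands, receptors and SMADs in each line, with filled points past an adjusted p of 0.05. YAP1 lies at -1.47 and -1.25 in PANC-1 and MIA PaCa-2, SMAD2 and SMAD3 lie below 0 in all 3 lines, and TGFB2 reaches 1.74 in PaTu 8988T.

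Among 19 Hippo kinases and regulators, 12 rose and 6 fell of 19 tested in PANC-1 (median log2 fold change 0.16), 4 rose and 1 fell of 16 in MIA PaCa-2 (median 0.08), and 9 rose and 2 fell of 18 in PaTu 8988T (median 0.14), and 5 and 5 of 16 in MIA PaCa-2 without control replicate 2. Of all genes, 40.1% rose and 32.2% fell in PANC-1, and 20.9% and 18.5% in PaTu 8988T. In MIA PaCa-2 the shares were 18.7% and 21.7%, or 35.4% and 39.8% without control replicate 2. MOB1A, the adaptor that activates LATS kinases, fell in PANC-1 from 39.4 ± 2.62 to 14.97 ± 0.597 FPKM (log2 fold change -1.39, SE 0.0522, adjusted p = 7.75e-09) and in MIA PaCa-2 from 35.3 ± 10.6 to 15.8 ± 0.475 FPKM (log2 fold change -1.10, SE 0.228, adjusted p = 0.00989). Its paralog MOB1B fell in PANC-1 from 6.95 ± 0.125 to 2.68 ± 0.401 FPKM (log2 fold change -1.35, SE 0.0986, adjusted p = 9.22e-07). FRMD6, the gene of smallest p in PaTu 8988T, rose by 0.43 (SE 0.0449, adjusted p = 0.000105) on the log2 scale.

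A list of 17 other genes assigned to YAP/TAZ was split. Of these, 5 rose and 7 fell of 14 tested in PANC-1 (median log2 fold change -0.09), 7 rose and 2 fell of 12 in MIA PaCa-2 (median 0.50), and 7 rose and 3 fell of 16 in PaTu 8988T (median 0.14), and 7 and 4 of 12 in MIA PaCa-2 without control replicate 2. IGFBP3, a secreted binder of insulin-like growth factors, rose in PANC-1 from 3.21 ± 0.393 to 14.3 ± 0.572 FPKM (log2 fold change 2.13, SE 0.0842, adjusted p = 1.04e-08). CRIM1, a transmembrane binder of BMPs, fell there from 44.96 ± 0.986 to 15.4 ± 0.450 FPKM (log2 fold change -1.54, SE 0.0372, adjusted p = 5.32e-10), as did NT5E, the ectonucleotidase CD73, from 118 ± 0.819 to 55.3 ± 0.820 FPKM (log2 fold change -1.09, SE 0.0245, adjusted p = 3.17e-10), and FOXF2, a forkhead factor, from 1.99 ± 0.307 to 0.841 ± 0.210 FPKM (log2 fold change -1.16, SE 0.188, adjusted p = 0.000292). GADD45A, a stress-response gene also induced through other routes, rose in MIA PaCa-2 from 23.7 ± 2.17 to 63.02 ± 0.6003 FPKM (log2 fold change 1.41, SE 0.0855, adjusted p = 0.000175). NT5E rose in MIA PaCa-2 (0.53, SE 0.166, adjusted p = 0.0427) and fell in PaTu 8988T (-0.38, SE 0.0410, adjusted p = 0.000120).

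TGFB2, a TGF-beta ligand, rose in both lines in which it was tested, in PANC-1 from 14.9 ± 0.304 to 25.3 ± 0.752 FPKM (log2 fold change 0.76, SE 0.0399, adjusted p = 8.22e-08) and in PaTu 8988T from 0.653 ± 0.0813 to 2.41 ± 0.132 FPKM (log2 fold change 1.74, SE 0.114, adjusted p = 7.48e-06), and averaged 0.0496 and 0.0934 FPKM in MIA PaCa-2. TGFB1 fell in PANC-1 from 23.3 ± 2.06 to 16.4 ± 0.626 FPKM (log2 fold change -0.50, SE 0.0613, adjusted p = 4.31e-05) and in PaTu 8988T from 58.6 ± 1.41 to 49.2 ± 3.23 FPKM (log2 fold change -0.25, SE 0.0495, adjusted p = 0.00339), and was at -0.05 (SE 0.158, adjusted p = 0.813) in MIA PaCa-2. TGFB3 rose in PANC-1 by 0.34 (SE 0.124, adjusted p = 0.0298) and in MIA PaCa-2 by 0.54 (SE 0.0889, adjusted p = 0.00424), and averaged 0.155 and 0.169 FPKM in PaTu 8988T. LTBP4, which tethers latent TGF-beta to the matrix, fell in PANC-1 from 11.3 ± 0.639 to 4.89 ± 0.365 FPKM (log2 fold change -1.19, SE 0.0695, adjusted p = 1.72e-07). For the 11 genes of ligands, latency and activation, 3 rose and 5 fell of 8 tested in PANC-1 (median log2 fold change -0.36), 1 rose and 0 fell of 6 in MIA PaCa-2 (median 0.03), and 1 rose and 4 fell of 6 in PaTu 8988T (median -0.23), with 2 and 1 of 6 in MIA PaCa-2 without control replicate 2.

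SMAD2 and SMAD3, which carry the TGF-beta signal to the nucleus, fell in all 3 lines. SMAD2 changed by -0.69 (SE 0.0914, adjusted p = 7.01e-05) in PANC-1, -0.78 (SE 0.148, adjusted p = 0.00720) in MIA PaCa-2 and -0.25 (SE 0.0794, adjusted p = 0.0337) in PaTu 8988T, and SMAD3 by -0.32 (SE 0.0244, adjusted p = 1.25e-06), -0.55 (SE 0.0785, adjusted p = 0.00254) and -0.32 (SE 0.0503, adjusted p = 0.00121). Without control replicate 2 the MIA PaCa-2 values were -0.91 (adjusted p = 6.80e-05) for SMAD2 and -0.52 (adjusted p = 5.63e-06) for SMAD3. SMAD4 was listed at 0 in all 6 PaTu 8988T libraries, and had log2 fold changes of -0.06 (SE 0.0729, adjusted p = 0.494) in PANC-1 and -0.19 (SE 0.159, adjusted p = 0.371) in MIA PaCa-2, the latter -0.37 (adjusted p = 7.44e-05) without control replicate 2. TGFBR2 was listed at 0 in the 3 MIA PaCa-2 controls and averaged 0.00389 FPKM after knockdown, and it rose in PANC-1 by 0.18 (SE 0.0348, adjusted p = 0.000963) and in PaTu 8988T by 0.22 (SE 0.0430, adjusted p = 0.00313). TGFBR1 passed in no line, with log2 fold changes of 0.03, 0.03 and -0.15. ZFYVE9, the SMAD anchor SARA, rose in PANC-1 by 0.86 (SE 0.0564, adjusted p = 4.14e-07), and ENG, the coreceptor endoglin, fell in PaTu 8988T with a log2 fold change of -0.64 (SE 0.0967, adjusted p = 0.000889). ENG also fell in PANC-1 (-0.44, SE 0.0780, adjusted p = 0.000586) and MIA PaCa-2 (-0.59, SE 0.121, adjusted p = 0.00987). Of the 9 receptors and SMADs, 3 rose and 3 fell of 8 tested in PANC-1 (median log2 fold change -0.01), 2 rose and 3 fell of 8 in MIA PaCa-2 (median -0.14), and 1 rose and 3 fell of 8 in PaTu 8988T (median -0.14), with 2 and 5 of 8 in MIA PaCa-2 without control replicate 2.

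For 9 inhibitors of TGF-beta signalling, 4 rose and 2 fell of 8 tested in PANC-1 (median log2 fold change 0.15), 4 rose and 1 fell of 8 in MIA PaCa-2 (median 0.26), and 2 rose and 1 fell of 8 in PaTu 8988T (median 0.07), with 4 and 2 of 8 in MIA PaCa-2 without control replicate 2. BAMBI, a decoy receptor, fell in MIA PaCa-2 from 2.42 ± 0.370 to 0.673 ± 0.368 FPKM (log2 fold change -1.79, SE 0.320, adjusted p = 0.00566). TGIF1, a SMAD corepressor, rose in PANC-1 by 0.25 (SE 0.0448, adjusted p = 0.000596), and the ubiquitin ligase SMURF2 fell in PaTu 8988T with a log2 fold change of -0.25 (SE 0.0378, adjusted p = 0.000991). SMURF2 went the other way in PANC-1 (0.25, SE 0.0596, adjusted p = 0.00332) and MIA PaCa-2 (0.67, SE 0.117, adjusted p = 0.00526). TGIF1 also rose in MIA PaCa-2 (0.67, SE 0.0806, adjusted p = 0.00136).

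Among 20 other TGF-beta targets, 2 rose and 8 fell of 13 tested in PANC-1 (median log2 fold change -0.27), 6 rose and 2 fell of 12 in MIA PaCa-2 (median 0.38), and 2 rose and 6 fell of 10 in PaTu 8988T (median -0.46), and 9 and 2 of 12 in MIA PaCa-2 without control replicate 2. In PANC-1 PMEPA1, which dampens SMAD signalling, fell from 24.4 ± 0.163 to 7.75 ± 0.655 FPKM (log2 fold change -1.65, SE 0.0594, adjusted p = 5.93e-09), and PDGFB, a growth factor subunit, from 30.8 ± 0.953 to 11.4 ± 0.572 FPKM (log2 fold change -1.43, SE 0.0473, adjusted p = 3.43e-09). FN1, fibronectin, rose from 2.05 ± 0.118 to 6.54 ± 0.348 FPKM (log2 fold change 1.63, SE 0.0785, adjusted p = 4.27e-08). PMEPA1 also fell in MIA PaCa-2, from 3.51 ± 0.457 to 0.561 ± 0.205 FPKM (log2 fold change -2.49, SE 0.255, adjusted p = 0.000754), where the cell-cycle inhibitor CDKN1A, also a p53 target, rose from 1.33 ± 0.4005 to 10.7 ± 0.557 FPKM (log2 fold change 2.95, SE 0.197, adjusted p = 0.000202) and the circadian repressor BHLHE40 from 7.46 ± 0.572 to 21.4 ± 0.168 FPKM (log2 fold change 1.51, SE 0.0887, adjusted p = 0.000172). PDGFB fell in PaTu 8988T from 2.44 ± 0.177 to 0.926 ± 0.114 FPKM (log2 fold change -1.31, SE 0.113, adjusted p = 3.40e-05). BHLHE40 and FN1 went the other way there, with log2 fold changes of -0.60 (SE 0.0339, adjusted p = 2.88e-06) and -0.46 (SE 0.0931, adjusted p = 0.00431).

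Serum response factor and the immediate early genes share several targets with YAP, CCN1 among them. Of 17 MRTF-SRF factors and targets, 4 rose and 8 fell of 15 tested in PANC-1 (median log2 fold change -0.05), 4 rose and 4 fell of 16 in MIA PaCa-2 (median 0.02), and 5 rose and 1 fell of 16 in PaTu 8988T (median 0.06), and 9 and 4 of 16 in MIA PaCa-2 without control replicate 2. ACTB, beta-actin, fell in PANC-1 from 2830 ± 28.6 to 1952 ± 10.6 FPKM (log2 fold change -0.54, SE 0.0131, adjusted p = 5.58e-10), ACTA2, smooth muscle actin, rose in MIA PaCa-2 from 1.24 ± 0.0950 to 5.03 ± 0.268 FPKM (log2 fold change 1.94, SE 0.112, adjusted p = 0.000168), and TPM1, a tropomyosin, rose in PaTu 8988T by 0.40 (SE 0.0366, adjusted p = 5.14e-05). TPM1 also rose in PANC-1 (0.61, SE 0.0362, adjusted p = 1.84e-07). Of 16 immediate early genes, 2 rose and 8 fell of 11 tested in PANC-1 (median log2 fold change -0.26), 10 rose and 1 fell of 14 in MIA PaCa-2 (median 0.68), and 3 rose and 5 fell of 12 in PaTu 8988T (median -0.12), and 12 and 1 of 14 in MIA PaCa-2 without control replicate 2. ATF3, a stress-induced factor, rose past 2-fold in all 3 lines, from 2.11 ± 0.167 to 5.62 ± 0.248 FPKM in PANC-1 (log2 fold change 1.37, SE 0.0836, adjusted p = 2.36e-07), from 1.45 ± 0.266 to 7.90 ± 0.207 FPKM in MIA PaCa-2 (log2 fold change 2.38, SE 0.141, adjusted p = 0.000172) and from 13.2 ± 0.712 to 30.1 ± 1.86 FPKM in PaTu 8988T (log2 fold change 1.19, SE 0.0577, adjusted p = 1.74e-06).

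In MIA PaCa-2 the early genes EGR1 (log2 fold change 1.54, SE 0.0872, adjusted p = 0.000168), JUN (log2 fold change 1.02, SE 0.152, adjusted p = 0.00287) and FOS (log2 fold change 1.13, SE 0.210, adjusted p = 0.00662) also rose past 2-fold. JUN fell in PANC-1, with a log2 fold change of -0.17 (SE 0.0392, adjusted p = 0.00252), and rose in PaTu 8988T by 0.45 (SE 0.0349, adjusted p = 1.74e-05). The AP-1 subunit FOSL1 fell in all 3 lines, from 38.3 ± 2.23 to 10.8 ± 1.17 FPKM in PANC-1 (log2 fold change -1.81, SE 0.0727, adjusted p = 1.15e-08), from 67.7 ± 6.12 to 55.9 ± 0.872 FPKM in MIA PaCa-2 (log2 fold change -0.27, SE 0.0826, adjusted p = 0.0383) and from 352 ± 8.06 to 209 ± 13.1 FPKM in PaTu 8988T (log2 fold change -0.76, SE 0.0471, adjusted p = 5.87e-06). The nuclear receptor NR4A1 rose in PANC-1 from 0.601 ± 0.110 to 2.79 ± 0.234 FPKM (log2 fold change 2.05, SE 0.146, adjusted p = 7.50e-07).

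Relatives and binding partners of the members formed a list of 16, in which 4 rose and 6 fell of 10 tested in PANC-1 (median log2 fold change -0.21), 1 rose and 1 fell of 5 in MIA PaCa-2 (median -0.22), and 1 rose and 1 fell of 8 in PaTu 8988T (median 0.06), and 1 and 2 of 5 in MIA PaCa-2 without control replicate 2. CCN5, a CCN protein that lacks the C-terminal module of its relatives, rose in PANC-1 from 3.05 ± 0.464 to 7.69 ± 0.270 FPKM (log2 fold change 1.32, SE 0.103, adjusted p = 1.59e-06), and TYRO3, a receptor of the AXL family, fell there from 2.06 ± 0.143 to 0.756 ± 0.197 FPKM (log2 fold change -1.36, SE 0.170, adjusted p = 4.93e-05). TYRO3 fell in MIA PaCa-2 as well, from 3.61 ± 0.809 to 2.10 ± 0.141 FPKM (log2 fold change -0.74, SE 0.169, adjusted p = 0.0144). PROS1, a ligand of TYRO3 and MERTK, rose in MIA PaCa-2 from 1.03 ± 0.314 to 2.14 ± 0.252 FPKM (log2 fold change 1.02, SE 0.236, adjusted p = 0.0146), and by 0.77 (adjusted p = 0.000431) without control replicate 2. PROS1 fell in PANC-1 (-0.14, SE 0.0429, adjusted p = 0.0149). ANKRD2, a close relative of ANKRD1, rose in PaTu 8988T from 5.46 ± 0.211 to 8.52 ± 0.458 FPKM (log2 fold change 0.63, SE 0.0608, adjusted p = 6.57e-05).

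The rule by which list genes are named picked 25 genes tested in MIA PaCa-2, of which 19 passed. All 19 also passed, with the same sign, without control replicate 2, and of the others among the 25, TEAD3 (0.17, adjusted p = 0.0222) and SMAD4 passed only without it. The MIA PaCa-2 values of FOSL1 and TYRO3, like those of JUN in the other lines and of FOSL1 in PaTu 8988T, are outside that rule and were chosen after their values were seen. The same holds for SMURF2 and ENG in PANC-1 and MIA PaCa-2, and for VGLL4 and PROS1 in PANC-1. It also holds for NT5E and CRIM1 in MIA PaCa-2 and PaTu 8988T, and for BHLHE40 and FN1 in PaTu 8988T. TPM1 in PANC-1 and TGIF1 in MIA PaCa-2 were likewise chosen after their values were seen. A gene named in 1 line may have changed in the others too, in either direction. Without control replicate 2 the MIA PaCa-2 log2 fold changes were -0.20 (adjusted p = 0.000152) for FOSL1 and -0.56 (adjusted p = 0.000400) for TYRO3. They were 0.56 (adjusted p = 1.55e-05) for SMURF2, -0.46 (adjusted p = 8.38e-06) for ENG and 0.33 (adjusted p = 2.91e-06) for NT5E. For TGIF1 and CRIM1 they were 0.67 (adjusted p = 3.04e-06) and -0.91 (adjusted p = 4.02e-07).

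CCN1, AMOTL2 and AXL were the members tested in all 3 lines whose neighbours could be sought among the 9083 genes tested in every line, by the root mean square difference of the 3 log2 fold changes. UCP2 (0.206) and INSIG1 (0.222) lay nearest to CCN1, ZNHIT2 (0.0628) and MON1A (0.0711) to AMOTL2, and SPAG1 (0.145) and IFITM2 (0.162) to AXL. INSIG1, for example, changed by -0.70, 1.42 and 0.38 in PANC-1, MIA PaCa-2 and PaTu 8988T, where CCN1 changed by -0.32, 1.38 and 0.41.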

How the data were processed

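RNA sequencing of 3 control and 3 shOFD1 libraries from each of PANC-1, MIA PaCa-2 and PaTu 8988T was analysed. According to the study's methods, the authors mapped reads with HISAT2, counted them with HTSeq-count, tested counts with DESeq2 and calculated FPKM, and the deposited table holds FPKM values for 26668 symbols. The submitters' processing notes name hg38 beside the mouse builds GRCm38 and mm10. The methods name TRIzol and the labels an RNeasy kit for the RNA. FPKM are not counts, so limma 3.58.1 (R 4.3.3; lmFit, then eBayes with a variance trend) was run on log2(FPKM + 0.1) within each line over genes with a mean of at least 1 FPKM, with Benjamini-Hochberg adjustment across all of those genes. The thresholds were an adjusted p of 0.05, and that with a fold change above 2 or below 0.5. The fits were checked on simulated data. Fold changes on this scale understate changes of low genes.

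Reads and gene lengths were recovered from the whole-number ratios of the values for 94.6%, 90.8% and 90.3% of genes above 0 in PANC-1, MIA PaCa-2 and PaTu 8988T, and gave 32486486 to 39797543 reads per library. PANC-1 rested on other gene lengths, so levels between lines were described only for genes of equal length. A gene listed at 0 may be a failed estimate. Nothing in the labels says that replicates were separate cultures, so p-values measure the spread between these libraries, which may be technical, and 3 against 3 cannot go below an exact permutation p of 0.1. Differences between lines were interaction terms in 1 fit of 18 libraries. Alternatives were other pseudocounts, filters and scalings, no variance trend, a replicate block, 2 lines fitted alone, and each library left out in turn. The 9 genes and all lists were chosen with earlier results of these data known. Of the lists, the text names the coactivators, TEADs, TGF-beta ligands, TGFBR1, TGFBR2 and SMAD2 to SMAD4 in every line, and otherwise genes past the threshold and 2-fold (at most 4 per list and line) or the gene of smallest p. A gene that this rule names is not reported here. Neighbours were the 2 genes nearest to a member by the root mean square difference of 3 log2 fold changes. Python 3.11.15, pandas 2.3.3, numpy 2.4.6 and matplotlib 3.10.9 were used.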

Additional observations from a re-analysis of the deposited data

Results flagged for a closer look

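By the limma interaction test, 6 of the 8 genes tested differed in their change for PANC-1 minus MIA PaCa-2. For PANC-1 minus PaTu 8988T 4 differed and for MIA PaCa-2 minus PaTu 8988T 5, and THBS1 was not tested. The p-values were adjusted over 10697 genes, with 3 libraries per group. Each difference is given as the first line minus the second on the log2 scale. Of all genes, 43.2% differed for PANC-1 minus MIA PaCa-2, 35.8% for PANC-1 minus PaTu 8988T and 51.1% for MIA PaCa-2 minus PaTu 8988T. No test compared the counts of members with these shares. For PANC-1 minus MIA PaCa-2 the difference was -1.70 (adjusted p = 1.58e-10) for CCN1, -1.57 (adjusted p = 3.37e-09) for AXL, 1.28 (adjusted p = 1.11e-07) for AMOTL2 and -0.65 (adjusted p = 0.000688) for TGFBI. It was 0.73 (adjusted p = 0.0247) for ANKRD1 and 0.33 (adjusted p = 0.0179) for CCN2, which were counted at 6 to 23 and 20 to 28 reads per library in MIA PaCa-2. These calls were lost in a fit of the 2 lines alone (adjusted p = 0.0715 and 0.0819), and that of ANKRD1 also without PANC-1 control replicate 2 (0.56, adjusted p = 0.0718) or without MIA PaCa-2 shOFD1 replicate 1 (0.51, adjusted p = 0.0616).

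For PANC-1 minus PaTu 8988T the difference was -0.74 (adjusted p = 1.61e-06) for CCN1, -1.30 (adjusted p = 2.94e-08) for AXL, 0.54 (adjusted p = 0.000598) for AMOTL2 and -1.40 (adjusted p = 6.15e-07) for TGFBI. For MIA PaCa-2 minus PaTu 8988T it was 0.97 (adjusted p = 4.35e-08) for CCN1, -0.53 (adjusted p = 0.000557) for CCN2, -0.75 (adjusted p = 1.50e-05) for AMOTL2, -0.74 (adjusted p = 0.000156) for TGFBI and 0.27 (adjusted p = 0.0186) for AXL, the last of which did not pass in a fit of these lines alone (adjusted p = 0.0537). These TGFBI differences came to -0.87 and -0.24 with a pseudocount of 1. OFD1 itself fell less in MIA PaCa-2 than in the other lines. Each comparison of MIA PaCa-2 rests on a control group in which replicate 2 stood apart. Without that library the 6 differences between PANC-1 and MIA PaCa-2 and the 5 between MIA PaCa-2 and PaTu 8988T all passed, with adjusted p of at most 0.0299.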

How the results depend on the processing

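Of the 276 fold changes of single members recomputed under the alternatives, 257 kept their direction and their side of the threshold, as did 385 of 404 differences between lines. The cause was not tested for those that did not. In MIA PaCa-2 the single member called lower was lost (0 called) without the filter on low values, under quantile normalization and with the replicate block, and the members called higher came to 1 without the filter and with the block. Leaving out 1 library at a time gave 0 to 1 members lower and 1 to 3 higher in that line. In PANC-1, requiring a mean of at least 5 FPKM left 3 members higher because ANKRD1 and THBS1 were no longer tested. The MIA PaCa-2 calls of AMOTL2 and AXL had adjusted p = 0.0540 and 0.0564 without the filter, and 0.0628 and 0.0810 with the replicate block. The replicate numbers shared by the groups were not shown to pair the libraries: correlations of deviations between same-numbered control and knockdown libraries ran from -0.111 to 0.130, and not every library correlated best with its own number. The block left 7884 against 7882 calls over all genes in PANC-1, 3369 against 4350 in MIA PaCa-2 and 3851 against 4216 in PaTu 8988T, and of the differences between lines it ended the call of CCN2 for PANC-1 minus MIA PaCa-2 (adjusted p = 0.0670), as did median-ratio scaling (0.0569). The directions that turned were of SMAD7 and SKIL values that did not pass the threshold with all libraries. SMAD7 in PaTu 8988T ranged from -0.048 to 0.0934 with 1 library left out. With a pseudocount of 1, the SKIL difference for PANC-1 minus MIA PaCa-2 was 0.14 and the SMAD7 difference for MIA PaCa-2 minus PaTu 8988T was -0.0080. With 1 library left out, these ran from -0.27 to 0.30 and from -0.21 to 0.31, and SKIL for MIA PaCa-2 minus PaTu 8988T from -0.0697 to 0.50. With a pseudocount of 1, ANKRD1 for MIA PaCa-2 minus PaTu 8988T passed at -0.89 (adjusted p = 1.83e-05) and CCN2 for PANC-1 minus PaTu 8988T at -0.20 (adjusted p = 0.0109). The scalings moved the median of all genes by less than 0.1 on the log2 scale. CCN2, ANKRD1, SMAD7 and SKIL in MIA PaCa-2 and TGFBI and THBS1 in PaTu 8988T were too low to be tested in the filtered fit. Of these, SKIL lay just under the minimum, at a mean of 0.962 FPKM. TGFBI in PaTu 8988T passed in the limma fit without the filter (0.96, adjusted p = 0.00933). THBS1 was listed at 0 in all 6 MIA PaCa-2 libraries, which may be a failed estimate.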
